A study of Mus musculus with 6 samples.

Results

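The 38 genes described here code for the enzymes that remove superoxide and peroxides, make and use glutathione, keep thioredoxin reduced, and set how readily a cell undergoes ferroptosis. They were picked by symbol for their known roles, with earlier results of these data known but with no rule on their values, from a table of 45777 mouse genes. All 38 were found, and all 38 were among the 18328 genes that averaged 10 counts or more per library, the set in which every test was run.

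The study asked how ginsenoside Rh2, a ginseng saponin, changes the heart damage that doxorubicin (Dox), an anthracycline chemotherapy drug, causes in tumour-bearing mice. RNA from hearts was sequenced in 6 libraries, 1 per condition, each made from RNA of 5 pooled hearts. There is therefore no replicate of any condition, and the spread between single hearts was not measured.

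Every mouse, those of the Control group included, was a female of the BALB/c nude strain (CAnN.Cg-Foxn1nu/Crl), which lacks mature T cells. Each carried a subcutaneous tumour of MDA-MB-231 cells, a human breast cancer line. The age given, 6 weeks, is not that at sampling, since the paper puts the start of treatment at 7 weeks of age. Treatment began at day 7 after the tumour cells were given and lasted 3 weeks. Control received neither drug but saline. Rh2-20 and Rh2-30 received daily Rh2 in PBS with Tween 80 at 20 or 30 mg/kg. Dox received doxorubicin at 2 mg/kg in saline on alternate days, to a cumulative 22 mg/kg, and Rh2-20 + Dox and Rh2-30 + Dox received both. The part of the heart that was taken is not given in the sources used here.

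Superoxide, formed in mitochondria and by doxorubicin as its quinone ring cycles between redox states, is turned into hydrogen peroxide by superoxide dismutases. Catalase, the glutathione peroxidases and the peroxiredoxins then remove the peroxide, drawing on glutathione and thioredoxin, which are reduced again with NADPH. Ferroptosis is a form of cell death driven by peroxidised membrane lipids, which Gpx4 and Aifm2 (also called Fsp1) restrain and Acsl4 promotes. Many of these genes are targets of the transcription factor Nrf2, coded by Nfe2l2, which Keap1 holds in check and which binds the antioxidant response element.

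The sequences below show where that element's core occurs near the starts of these genes, since shared control by Nrf2 is what the list is best known for. The core was searched as TGACNNNGC on both strands, from 250 bases before to 50 bases after each RefSeq transcript start in mouse build GRCm38.p6. Its first letters are shared with the AP-1 motif TGACTCA, so that the matches of both can overlap. Windows were at hand for 32 of the 38 genes, and 7 of the 32 (21.9%) held a match, against 14% of 27025 genes. Each match is printed with 10 bases on either side, on the strand of its gene, with the core in capitals. In Nfe2l2 the core is on the strand printed, and in the other 6 it is on the opposite strand and so reads GCNNNGTCA. A match is a description of letters in a window and not evidence of binding.

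Nfe2l2, chr2:75704885-75704913, minus strand: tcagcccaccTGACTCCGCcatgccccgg
Srxn1, chr2:152105542-152105570, plus strand: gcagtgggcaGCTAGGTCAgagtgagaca
Gclm, chr3:122245413-122245441, plus strand: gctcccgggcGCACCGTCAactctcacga
Prdx1, chr4:116685456-116685484, plus strand: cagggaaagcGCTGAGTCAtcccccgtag
Mgst1, chr6:138140461-138140489, plus strand: gcggggcttgGCACGGTCAggaggcgggg
Txnrd1, chr10:82859104-82859132, plus strand: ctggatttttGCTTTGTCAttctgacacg
Sod1, chr16:90220696-90220724, plus strand: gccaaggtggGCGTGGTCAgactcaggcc

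The Srxn1 match began 28 bases after its transcript start, and the other 6 lay before theirs, from 56 bases (Mgst1 and Sod1) to 240 bases (Nfe2l2) upstream. For Txnrd1 that transcript start lies inside the gene, which is mapped from 82833951, and not at the gene's outer end. Gstm1 and Mgst3, the pair of genes on the list that were higher in all 3 Dox libraries than in any other library, had no match in these windows. The 250 bases before their starts, both on the minus strand, are printed whole because those genes had the smallest p for Dox on the list.

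Gstm1, chr3:108017974-108018223: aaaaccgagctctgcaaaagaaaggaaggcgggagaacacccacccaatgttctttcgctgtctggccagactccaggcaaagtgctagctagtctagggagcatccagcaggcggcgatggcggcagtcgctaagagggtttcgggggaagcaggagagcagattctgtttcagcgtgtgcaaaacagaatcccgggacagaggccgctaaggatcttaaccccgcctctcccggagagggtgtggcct
Mgst3, chr1:167393842-167394091: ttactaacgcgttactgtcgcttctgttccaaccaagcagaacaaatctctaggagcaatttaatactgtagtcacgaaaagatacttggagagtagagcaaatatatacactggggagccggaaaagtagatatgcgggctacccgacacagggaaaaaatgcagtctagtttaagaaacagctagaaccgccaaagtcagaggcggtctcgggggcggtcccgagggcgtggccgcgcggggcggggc

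The libraries held from 86164411 to 90621002 counts, so depth differed little. Levels are given as CPM, counts scaled to a common library size with TMM factors, and compared between genes only as FPKM, which is also per kilobase. Cardiomyocyte markers were high throughout, with 5 genes summing to between 18373 CPM in Rh2-30 and 25106 CPM in Rh2-30 + Dox. Rh2-30 stood apart from the other libraries. Its 3 atrial markers summed to 1496 CPM, against 45.5 to 357 elsewhere, its 4 white fat markers to 193 CPM, against 0.345 to 35.5, and its brown fat marker Ucp1 stood at 67.9 CPM, against 0 to 0.138. Red cell markers, 5 globin and haem genes, summed to 10498 CPM in Dox and 1657 CPM in Rh2-30 + Dox. Skeletal muscle, liver and lung markers were near 0, at a sum of at most 7.73 CPM, and the lung gene Sftpc was at 0 in all 6 libraries. In bulk tissue such as this, fewer cells of a type and less RNA per cell cannot be told apart.

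The 38 genes together took 0.203 to 0.262% of the counts. Their summed level was lowest in Control, at 2115 CPM, then 2169 in Dox, 2348 in Rh2-20 + Dox, 2398 in Rh2-20, 2424 in Rh2-30 and 2681 in Rh2-30 + Dox. The heart used this set of genes at very unequal levels, with mean FPKM from 0.0228 for Slc7a11 to 294 for Sod1, and 26 of the 38 above 10. In 31 genes every library held at least 1000 counts, Slc7a11 held 13 to 41, Srxn1 147 to 153 and Gpx7 120 to 235.

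Most of the genes varied little over the 6 conditions. The ratio of the highest to the lowest library had a median of 1.48 over the 38 genes and 1.5 over all genes tested. It was under 1.5-fold for 20 genes, from 1.5 to 2-fold for 13, and over 2-fold for Gpx1 (2.66), Gpx3 (3.46), Hmox1 (2.46), Slc7a11 (2.8) and Mgst1 (4.55). Among all genes tested 47.8% were under 1.5-fold and 28.7% over 2-fold. The highest library was Rh2-30 + Dox for 18 of the 38 genes (20.2% of all genes) and Rh2-30 for 11 (26.1%). The lowest was Dox for 16 (20.1%), and Control, Rh2-30 and Rh2-30 + Dox for 7 each.

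**Figure D1:**
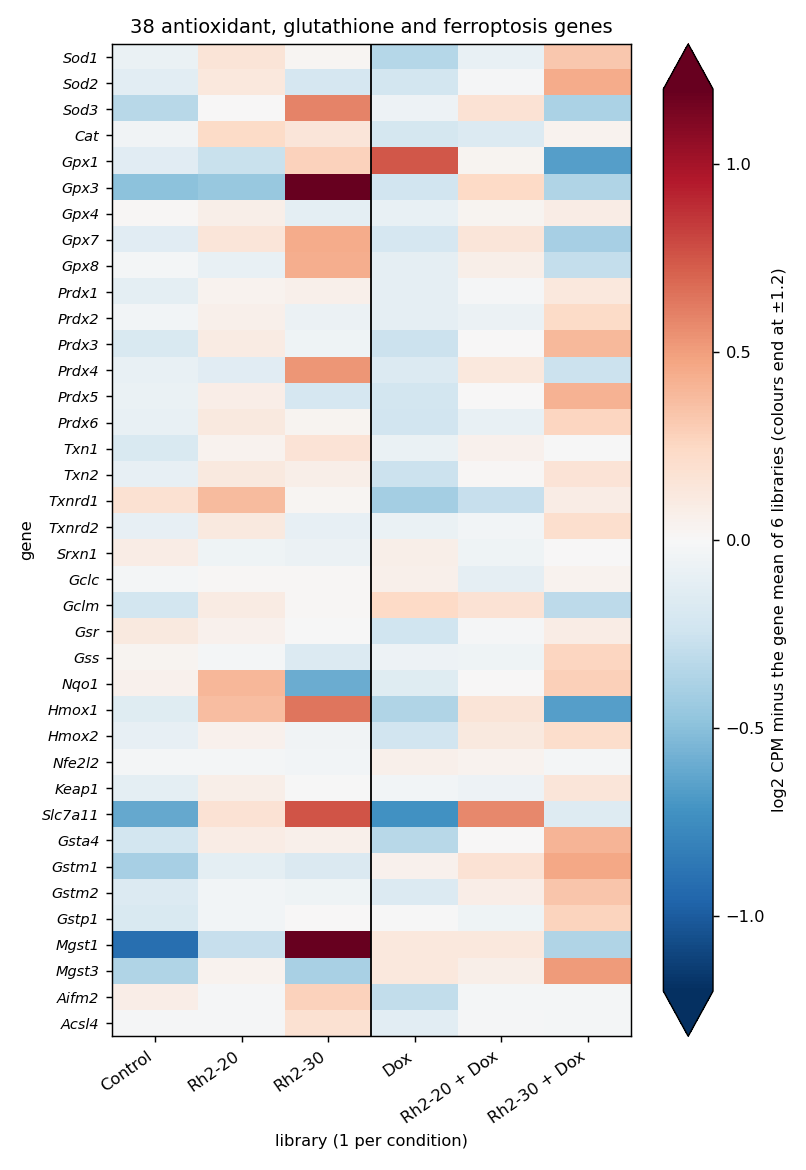
Level of each of the 38 genes (rows) in the 6 libraries (columns, 1 per condition), as log2 CPM minus the mean of the gene over the 6 libraries; red is above and blue below that mean. Gpx3 and Mgst1 are darkest red in Rh2-30, and Nfe2l2, Gclc and Srxn1 are nearly white across the row.

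The comparison of the 3 Dox libraries with the 3 libraries without Dox asks whether doxorubicin changed these genes whatever the Rh2 dose. No gene on the list passed. By edgeR's quasi-likelihood test, with p-values adjusted over 18328 genes (Benjamini-Hochberg), 0 of the 38 had an adjusted p under 0.05, and 5 of all genes did (0.0273%). At an unadjusted p under 0.05 the list held 3 genes, Gstm1, Mgst3 and Txnrd1, or 7.89% of it, against 10.1% of all genes. By DESeq2's Wald test 1 gene of the list, Gstm1, passed, with 423 of all genes. A p that misses the threshold does not show that these genes were alike with and without Dox. The differences centred on 0, with 20 genes above and 18 below and a median log2 difference of 0.01, against -0.01 over all genes. Without the Rh2-30 + Dox library 8 of the 38 lay above 0, and without both Rh2-30 libraries 14. The share of all genes above 0 was not counted in those fits, so these shifts may not be particular to the list.

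Gstm1 codes for a mu-class glutathione transferase, an enzyme that joins glutathione to electrophiles such as the aldehydes left by lipid peroxidation. It lies on chromosome 3 from 108012250 to 108017973 and was second in mean FPKM on the list, at 135. Its level was 169.6 CPM in Control, 206 in Rh2-20 and 198 in Rh2-30, against 232 in Dox, 253 in Rh2-20 + Dox and 308 in Rh2-30 + Dox. The lowest Dox library thus stood above the highest library without Dox, and within each set Control and Dox were the lowest. The means were 265 CPM ± 39.6 (SD, n = 3) with Dox and 191 ± 19.1 (SD, n = 3) without. On the log2 scale the difference was 0.47 ± 0.13 (SE), with an adjusted p of 0.344 by edgeR and 0.0421 by DESeq2's Wald test, so that the call rests on the tool.

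Each matched pair, a Dox library against the library of the same Rh2 dose, showed the same direction for Gstm1. That direction follows from the groups not overlapping and adds no support of its own. The log2 fold change was 0.45 for Dox against Control (95% interval 0.42 to 0.48), 0.3 for Rh2-20 + Dox against Rh2-20 (0.27 to 0.33) and 0.64 for Rh2-30 + Dox against Rh2-30 (0.61 to 0.66). These intervals are exact conditional binomial ones and cover counting error only. With any 1 library left out the log2 difference of the groups stayed between 0.34 and 0.55, and none of those fits gave an adjusted p under 0.05. Without both Rh2-30 libraries it was 0.37, with an adjusted p of 0.315 by edgeR. The mu-class genes lie side by side and have similar sequences, so reads could be shared among them, and their levels carry that uncertainty.

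Its neighbour Gstm2, a transferase of the same class on chromosome 3 from 107981702 to 107986420, came next in mean FPKM, at 94.9. It did not share the separation. It stood at 113 CPM in both Control and Dox, at 124 in Rh2-20, 122 in Rh2-30 and 134 in Rh2-20 + Dox, and at 159 in Rh2-30 + Dox. Libraries with and without Dox overlapped, and the log2 difference was 0.18 ± 0.13 (SE), with an adjusted p of 0.697 by edgeR.

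Mgst3, a membrane-bound enzyme with glutathione transferase and peroxidase activity, lies on chromosome 1 from 167371966 to 167393841. It stood at 62.6 CPM in Control, 82.8 in Rh2-20 and 61.2 in Rh2-30, and at 87.3 in Dox, 84.2 in Rh2-20 + Dox and 114 in Rh2-30 + Dox. The groups did not overlap, but Rh2-20 and Rh2-20 + Dox were almost level, with a log2 fold change of 0.02 (interval -0.02 to 0.07). The Dox pair gave 0.48 and the Rh2-30 pair 0.89. Over the groups the log2 difference was 0.46 ± 0.16 (SE), with an adjusted p of 0.421 by edgeR, and it was 0.24 without both Rh2-30 libraries.

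Txnrd1, the cytosolic thioredoxin reductase, is a selenoprotein and a known Nrf2 target. On chromosome 10 from 82833951 to 82897724, it had 65.2 CPM in Control, 75.0 in Rh2-20 and 58.7 in Rh2-30, and 43.5 in Dox, 47.7 in Rh2-20 + Dox and 61.4 in Rh2-30 + Dox. Dox and Rh2-20 + Dox were below the other 4 libraries, and Rh2-30 + Dox lay among the libraries without Dox. This depends on the scaling, since in FPKM Rh2-30 + Dox, at 13.2, lay below the libraries without Dox, at 13.9 to 17.0. The matched log2 fold changes were -0.58, -0.65 and 0.06 at Rh2 doses of 0, 20 and 30 mg/kg. Over the groups the log2 difference was -0.38 ± 0.15 (SE), with an adjusted p of 0.471 by edgeR. Without both Rh2-30 libraries, a fit added after the atrial and fat markers of Rh2-30 were seen, it was -0.62 with an adjusted p of 0.101 by edgeR. With only Rh2-30 left out it was -0.45, and with only Rh2-30 + Dox left out -0.54.

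Libraries with and without Dox did not overlap for 4 of the 38 genes, 10.5% of the list against 17.0% of all genes. Gstm1 and Mgst3 were higher with Dox, as were 7.85% of all genes, and the ferroptosis genes Aifm2 and Acsl4 lower, as were 9.16%. The lower pair separated only barely, and with DESeq2 size factors in place of TMM neither did. With those factors 3 genes did not overlap, Gstm1, Mgst3 and, by a narrow margin, Nfe2l2, all higher with Dox. On FPKM the genes that did not overlap were Gstm1 and Mgst3, higher with Dox, and Txnrd1 and Gsr, lower. Aifm2, an oxidoreductase that regenerates the lipid antioxidant ubiquinol, lies on chromosome 10 from 61715263 to 61739260. It stood at 24.8 CPM in Control, 23.2 in Rh2-20 and 28.4 in Rh2-30, and at 19.1 in Dox, 23.0 in Rh2-20 + Dox and 23.1 in Rh2-30 + Dox, so that the nearest libraries of the groups were 23.2 and 23.1. In the pair at 20 mg/kg its log2 fold change was -0.01 (interval -0.1 to 0.08), within counting error. Its log2 difference was -0.23 ± 0.12 (SE), with an adjusted p of 0.575 by edgeR.

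Acsl4, a ligase that loads polyunsaturated fatty acids for entry into membrane lipids, lies on chromosome X from 142317993 to 142390802. Its level was 32.0 CPM in Control and in Rh2-20, 36.5 in Rh2-30, 29.6 in Dox, 32.0 in Rh2-20 + Dox and 31.6 in Rh2-30 + Dox. Libraries of both groups met at 32.0 CPM, and in the pair at 20 mg/kg the log2 fold change was 0 (interval -0.08 to 0.07), within counting error. The log2 difference was -0.11 ± 0.09 (SE) with an adjusted p of 0.73 by edgeR, and without the Rh2-30 library it came to -0.03, so the value rests mainly on that library.

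**Figure D2:**
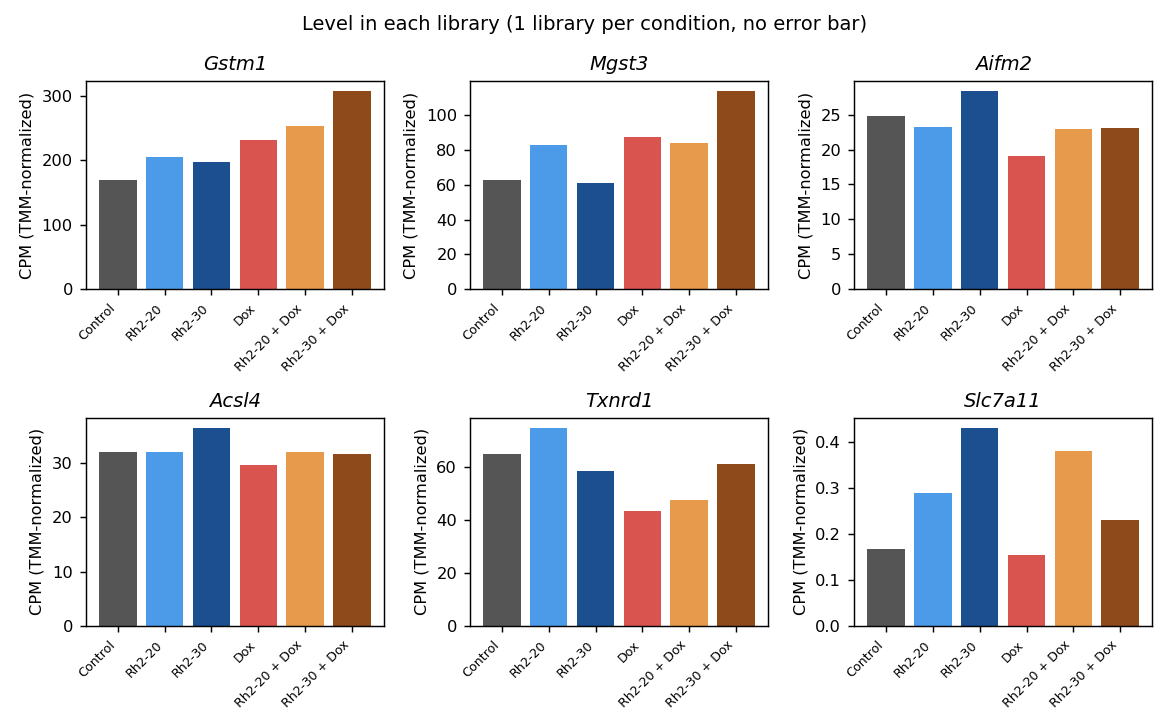
CPM of 6 genes in each library, with 1 library per condition and no error bar, on axes that start at 0; grey is Control, blue shades Rh2 alone, red Dox and brown shades Rh2 with Dox. The 3 Gstm1 bars on the right, from 232 to 308 CPM, all exceed the 3 on the left, from 169.6 to 206 CPM, and Acsl4 is almost flat.

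The regulators of the response were steady. Nfe2l2 lay between 98.2 and 105 CPM in all 6 libraries, a 1.07-fold range, and Keap1 between 21.2 and 25.5 CPM. Nfe2l2 was higher with Dox in all 3 matched pairs, as were Gstm1, Mgst3 and 15.9% of all genes, but by at most 0.09 on the log2 scale. Cat, Hmox1, Aifm2 and Acsl4 were lower in all 3 pairs, as were 17.6% of all genes. Aifm2 and Acsl4 were not lower beyond counting error at 20 mg/kg. For Gstm1, Mgst3, Aifm2 and Acsl4 the direction in the pairs follows from groups that did not overlap in CPM.

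Among the best known Nrf2 targets the Dox libraries followed no single direction. Nqo1, a quinone reductase, stood at 22.6 CPM in Control, 28.7 in Rh2-20 and 14.4 in Rh2-30, and at 19.7, 21.8 and 26.5 in Dox, Rh2-20 + Dox and Rh2-30 + Dox. Its matched log2 fold changes were -0.19, -0.4 and 0.88 at rising Rh2 dose. Hmox1, which breaks down haem, was lower with Dox in each pair, by -0.22, -0.21 and -1.3. It stood at 7.51, 10.7 and 12.9 CPM in Control, Rh2-20 and Rh2-30, and at 6.44, 9.24 and 5.24 CPM in Dox, Rh2-20 + Dox and Rh2-30 + Dox. The 4 macrophage markers summed to 242, 316 and 347 CPM and to 188, 277 and 173 CPM, the same order of the 6 libraries, and their part in the level of Hmox1 was not tested. Its log2 difference over the groups was -0.57 ± 0.27 (SE), with an adjusted p of 0.533 by edgeR. Srxn1, which repairs over-oxidised peroxiredoxins, held 147 to 153 counts in each library.

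The genes for glutathione synthesis were also near level. Gclc, the catalytic subunit of the rate-limiting ligase, lay between 47.1 and 52.8 CPM, and Gss, which completes the tripeptide, between 7.45 and 10.0 CPM. Gclm, the modifier subunit, had 15.5 CPM in Control against 21.4 in Dox, a difference of 0.46 on the log2 scale, but 18.3 in Rh2-30 and 14.6 in Rh2-30 + Dox, a change of -0.33. Gsr, which reduces oxidised glutathione, stood at 18.7 CPM in Dox and between 21.9 and 24.0 CPM in the other 5 libraries. Gpx4, the peroxidase that clears lipid peroxides and so blocks ferroptosis, kept to 81.9 to 94.1 CPM.

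Catalase, Cat, which splits hydrogen peroxide in peroxisomes, was the peroxide-removing gene lower with Dox in all 3 pairs, by -0.17, -0.39 and -0.1 on the log2 scale. It stood at 88.6, 107 and 101 CPM in Control, Rh2-20 and Rh2-30, and at 78.7, 81.7 and 94.0 CPM in Dox, Rh2-20 + Dox and Rh2-30 + Dox. The ranges overlapped, since Rh2-30 + Dox lay above Control, and the adjusted p was 0.559 by edgeR. The peroxiredoxins outside mitochondria and the secretory path overlapped too, with Prdx1 at 118 to 139.8 CPM, Prdx2 at 122 to 154 and Prdx6 at 50.5 to 70.9, each highest in Rh2-30 + Dox. Cytosolic thioredoxin, Txn1, lay between 54.3 and 69.2 CPM, and Gstp1, the pi-class glutathione transferase, between 42.3 and 57.8 CPM. All 5 of these genes had libraries with and without Dox that overlapped.

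Single Dox libraries were also set against their partners at a threshold of 1.5-fold, with no test of the conditions since each has 1 library. In Dox against Control, Gpx1 and Mgst1 were past it upward (10.9% of all genes were) and no gene downward (8.57%). In Rh2-20 + Dox against Rh2-20, Gpx3 was past it upward (8.66%) and Txnrd1 downward (6.62%). None of the 38 genes was past 1.5-fold in 1 direction in 2 of the 3 pairs, against 5.52% of all genes upward and 7.06% downward.

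At a stricter 2-fold, Mgst1 alone remained upward in Dox against Control (5.43% of all genes, with 3.58% downward), and no gene in Rh2-20 + Dox against Rh2-20 (4.09% upward and 2.87% downward).

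The pair at 30 mg/kg differed far more. Between Rh2-30 and Rh2-30 + Dox 14 of the 38 genes (36.8%) were past 1.5-fold in either direction, against 27.4% of all genes. Sod2, Prdx5, Nqo1, Gstm1 and Mgst3 were higher in Rh2-30 + Dox (6.96% of all genes), and Sod3, Gpx1, Gpx3, Gpx7, Gpx8, Prdx4, Hmox1, Slc7a11 and Mgst1 lower (20.5%). Past 2-fold were Gpx3, Hmox1 and Mgst1, all downward (12.2%, with 2.40% upward). This pair holds the library with the high atrial and fat markers, and their part in these differences was not tested.

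**Figure D3:**
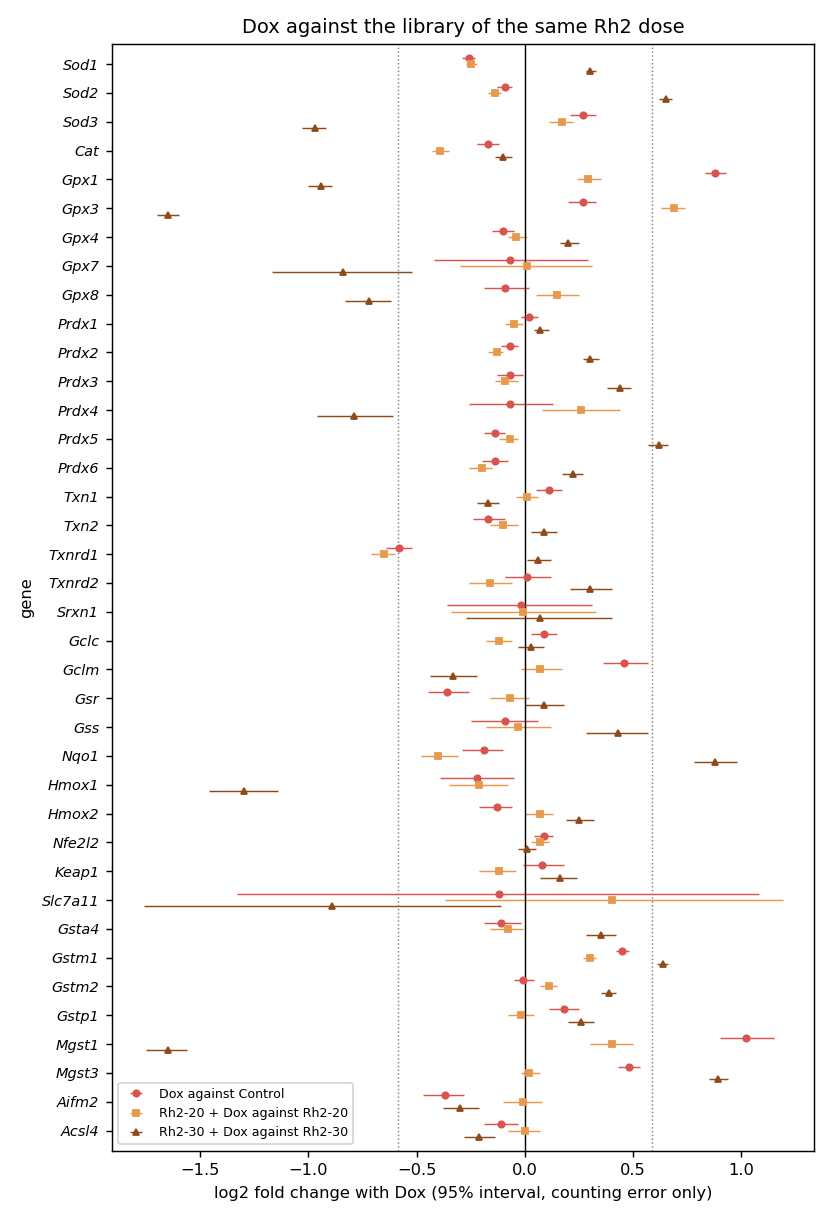
Log2 fold change of each gene in the 3 matched pairs, with a 95% interval for counting error only; dotted lines mark 1.5-fold either way. Circles (Dox against Control) and squares (the 20 mg/kg pair) mostly lie close together near 0, while triangles (the 30 mg/kg pair) spread from -1.65 for Gpx3 and Mgst1 to 0.89 for Mgst3.

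When the genes were grouped by where their proteins work, a grouping made after the values were seen and not tested, the libraries at 30 mg/kg held most of the extremes. The products of Sod3 and Gpx3 are secreted, and those of Gpx7, Gpx8 and Prdx4 lie in the endoplasmic reticulum. All 5 genes were highest in Rh2-30, as were 11 of the 38 in all. Sod3, for instance, stood at 81.7 CPM there and at 41.6 to 60.9 CPM elsewhere, and Prdx4 at 8.16 against 4.73 to 6.17. Gpx3, the plasma glutathione peroxidase (chromosome 11, 54902854 to 54910387), stood at 154 CPM in Rh2-30 and at 44.5 to 73.7 CPM in the other 5 libraries. Apart from Gpx3, lowest in Control, each was lowest in Rh2-30 + Dox. The 4 fibroblast markers had a sum of 1345 CPM in Rh2-30, 768 in Rh2-30 + Dox and 884 to 1118 in the others. Col1a1 and Col1a2 were highest in Rh2-30 and lowest in Rh2-30 + Dox. Pdgfra and Dcn were instead highest in Rh2-20 + Dox, at 109.9 and 655 CPM, and lowest in Control, at 87.1 and 432 CPM. The part of these markers was not tested.

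Sod2, Prdx3, Prdx5, Txn2 and Txnrd2, which act in mitochondria, were all highest in Rh2-30 + Dox, but so were 18 of the 38 in all, the cytosolic Sod1, Prdx1, Prdx2 and Gstm1 among them. Sod2, the matrix superoxide dismutase, reached 247 CPM there, against 156 to 198 CPM elsewhere, and Prdx3, the matrix peroxiredoxin, 75.4 against 48.4 to 61.8. Txnrd2 was lowest in Rh2-30 and the other 4 in Dox. The 5 cardiomyocyte markers summed to 25106 CPM in Rh2-30 + Dox, 18373 in Rh2-30 and 21445 to 23668 in the others. Myh6, Tnnt2, Actc1 and Myl2 were each highest in Rh2-30 + Dox. Ryr2 was not, at 5138 CPM there, 4839 in Rh2-30 and 6033 in Control. The part of these markers was not tested.

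Mgst1, a microsomal glutathione transferase on chromosome 6 from 138140527 to 138156755, varied most. Control held 10.0 CPM, Rh2-20 15.4 and Rh2-30 45.7, while Dox and Rh2-20 + Dox both held 20.4 and Rh2-30 + Dox 14.5. Control was lowest and Rh2-30 stood far above the rest, so that the log2 fold change was 1.02 for Dox against Control (interval 0.9 to 1.15) but -1.65 for the pair at 30 mg/kg (-1.75 to -1.56). The atrial sum was 45.5, 58.4 and 1496 CPM in Control, Rh2-20 and Rh2-30, and 357, 355 and 75.3 CPM in Dox, Rh2-20 + Dox and Rh2-30 + Dox. Both the gene and these markers were highest in Rh2-30, next highest in Dox and Rh2-20 + Dox, and lower in the other 3 libraries. The part of the atrial markers in the level of Mgst1 was not tested.

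Gpx1, the abundant cytosolic glutathione peroxidase, which red cells also hold in quantity, lies on chromosome 9 from 108339080 to 108340342. It was 55.3 CPM in Control, 50.5 in Rh2-20 and 73.7 in Rh2-30, and 102 in Dox, 61.9 in Rh2-20 + Dox and 38.3 in Rh2-30 + Dox. Beside Dox alone the addition of Rh2 came with less Gpx1, by -0.72 at 20 mg/kg and -1.41 at 30 mg/kg on the log2 scale. The red cell markers summed to 3599.6, 2603 and 3281 CPM without Dox and to 10498, 5896 and 1657 CPM in Dox, Rh2-20 + Dox and Rh2-30 + Dox. Highest and lowest libraries were the same for Gpx1 and for these markers, but not those between, since Rh2-30 was next to highest in Gpx1 and Rh2-20 + Dox in the markers, and how far blood in the samples set its level was not tested.

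**Figure D4:**
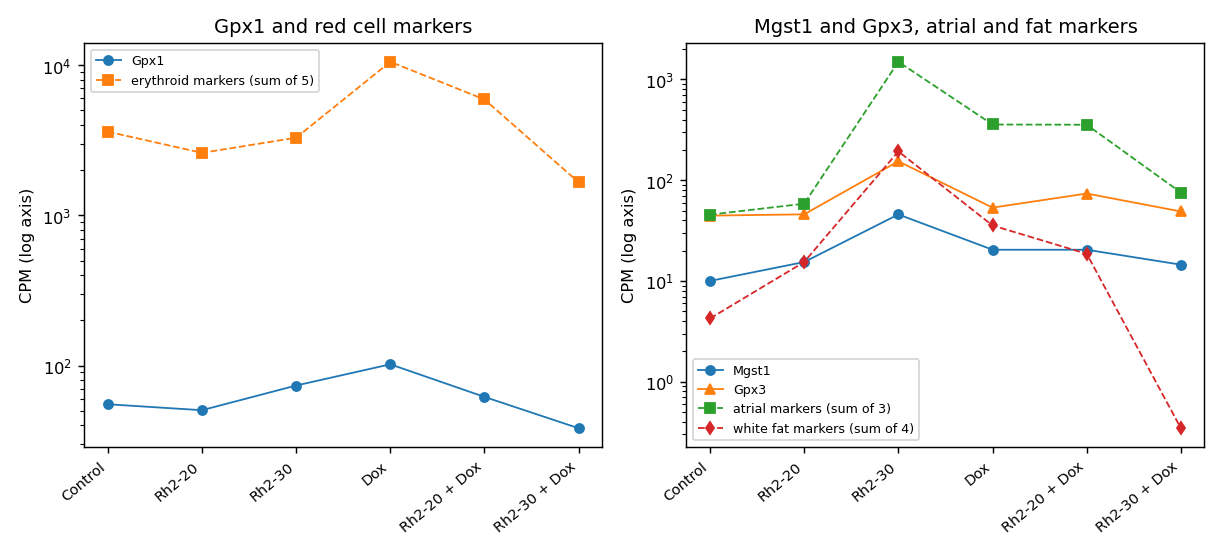
CPM on a log axis in the 6 libraries, 1 point per library, with lines only to guide the eye: Gpx1 with the summed red cell markers (left), and Mgst1 and Gpx3 with the summed atrial and white fat markers (right). Gpx1 and the red cell sum both peak in Dox (102 and 10498 CPM), and Mgst1, Gpx3 and both marker sums peak in Rh2-30.

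The comparison of the 4 libraries with Rh2 and the 2 without, with Dox as a term, asks whether these genes differed with Rh2. Rh2 was injected daily in PBS with detergent, and neither Control nor Dox is described as receiving that fluid. Any difference with Rh2 therefore cannot be told apart from one made by the fluid or the daily injections. None of the 38 passed in edgeR's quasi-likelihood test, and none of all 18328 genes did (0%). At an unadjusted p under 0.05 the list held Txn2, Gsta4 and Gstm1, against 8.74% of all genes. That count moved with the fit. It was 0 without Rh2-20, 4 without Rh2-30 + Dox, 5 without Rh2-30 and 6 without Rh2-20 + Dox. The count over all genes moved too, to 1299, 1433, 1450 and 1152 in those fits, against 1602 with all libraries. By limma on FPKM the list held 10, with 1921 or 1946 of all genes by pseudocount. Without both Rh2-30 libraries it held 13, with 2488 of all genes. The log2 differences of Txn2, Gsta4 and Gstm1 were 0.27 ± 0.09, 0.42 ± 0.14 and 0.26 ± 0.10 (SE), with adjusted p from 0.567 to 0.569 by edgeR. Without both Rh2-30 libraries they were 0.25, 0.32 and 0.21. Leaving out Control or Dox leaves a single library without Rh2, so only the sizes are given for those fits. They were 0.35, 0.55 and 0.28 without Control, and 0.19, 0.29 and 0.25 without Dox. DESeq2's Wald test called 247 of all genes but 0 of the 38, with adjusted p of 0.283, 0.26 and 0.373 for these 3.

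Most of the list leaned upward all the same. With Rh2, 33 of the 38 genes lay above 0, against 51.8% of all genes, with a median log2 difference of 0.19 against 0.01. With any 1 library left out, between 31 and 34 lay above 0, and without both Rh2-30 libraries 33 did. At 20 mg/kg, 23 genes were above 0 both against Control and against Dox, comparisons that share no library, and 3 were below 0 in both, against 30.7% and 29.6% of all genes. At 30 mg/kg, 16 were above in both (25.2%) and 2 below (24.8%). The sizes were small, with median log2 fold changes of 0.19 and 0.14 at 20 mg/kg and 0.15 and 0.27 at 30 mg/kg, in each case against Control first and against Dox second.

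All 4 libraries with Rh2 were above both libraries without it for 9 genes, 23.7% of the list against 9.87% of all genes, a count made after the values were seen. They were the peroxiredoxins Prdx1, Prdx3 and Prdx6, the thioredoxins Txn1 and Txn2, Hmox2, which is the constitutive haem oxygenase, the transferases Gsta4 and Gstm2, and Slc7a11. Gsta4, which conjugates the lipid aldehyde 4-hydroxynonenal, stood at 27.4 CPM in Control and 25.4 in Dox and at 32.0 to 42.3 CPM in the 4 Rh2 libraries. Txn2, mitochondrial thioredoxin, stood at 39.9 and 35.6 CPM without Rh2 and at 43.2 to 47.7 CPM with it. Srxn1 was the 1 gene whose 4 Rh2 libraries were all lower (9.08% of all genes), at 1.61 to 1.69 CPM against 1.77 and 1.80. On 147 to 153 counts per library this did not exceed counting error, with intervals from -0.48 to 0.2 and -0.49 to 0.18 against Control and from -0.46 to 0.21 and -0.41 to 0.27 against Dox on the log2 scale.

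Over all genes the difference with Rh2 went together with transcript length. Among 6835 genes with a mean of at least 20 CPM, divided into 5 equal classes by the transcript length that counts and FPKM imply, the median log2 difference with Rh2 was 0.12 in the shortest class and 0.01, -0.02, -0.06 and -0.07 in the next 4. The 29 genes of the list at that level were mostly short, with 18 in the shortest class and 24 in the 2 shortest. In the shortest class 17 of the 18 lay above 0, with a median of 0.23, where 72.3% of all genes lay above 0. In the second class 5 of 6 did, with a median of 0.18, where 52% of all genes did. In the third it was 3 of 4, with a median of 0.15, where 44.9% of all genes did. The list thus leaned upward beyond the shortest class too, on few genes. All 4 Rh2 libraries exceeded both others for 7 of the 18 in the shortest class, and for 23.8% of all genes in that class. The part of transcript length in the lean of the list was not tested.

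**Figure D5:**
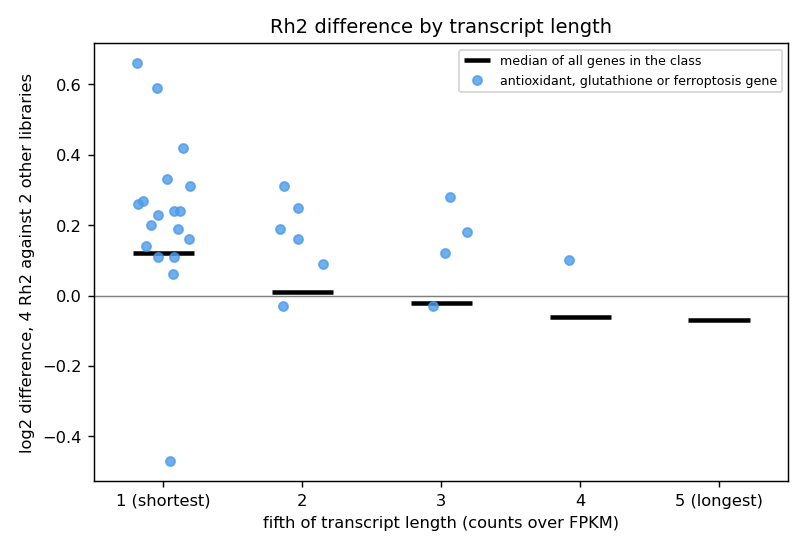
Log2 difference between the 4 libraries with Rh2 and the 2 without (vertical) by class of transcript length, shortest to longest (horizontal), for genes with a mean of at least 20 CPM; each point is 1 of the 29 genes of the list at that level, spread sideways for legibility, and each black bar the median of all 1367 genes in a class. The bars fall from 0.12 to -0.07, and 18 of the 29 points lie in the shortest class.

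Sod1, the cytosolic copper-zinc superoxide dismutase on chromosome 16 from 90220762 to 90226333, was the most abundant gene of the list. Control held 229 CPM, Rh2-20 269 and Rh2-30 245, and Dox held 191, Rh2-20 + Dox 227 and Rh2-30 + Dox 302. Dox was the lowest library and Rh2-30 + Dox the highest. At each Dox state the library without Rh2 was the lowest, and the log2 fold changes with Rh2 were 0.23 and 0.10 against Control and 0.25 and 0.66 against Dox. The group difference with Rh2 was 0.31 ± 0.15 (SE), with an adjusted p of 0.58 by edgeR.

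Slc7a11, the cystine importer that feeds glutathione synthesis and so guards against ferroptosis, was the 1 gene past 1.5-fold upward at 20 mg/kg both against Control and against Dox (1.93% of all genes were). It lies on chromosome 3 from 50364936 to 50499087 and was hardly detected. The libraries held 14 counts in Control, 26 in Rh2-20, 41 in Rh2-30, 13 in Dox, 35 in Rh2-20 + Dox and 20 in Rh2-30 + Dox, or 0.155 to 0.432 CPM. All 4 libraries with Rh2 were above both without. The log2 fold change was 0.76 against Control (interval -0.21 to 1.83) and 1.27 against Dox (0.35 to 2.35) at 20 mg/kg, so the first did not exceed counting error. Over the groups it was 1.04 ± 0.46 (SE), with an adjusted p of 0.573 by edgeR.

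Against Control, Mgst1 also passed 1.5-fold upward in Rh2-20 (6.95% of all genes) and no gene downward (6.62%). In Rh2-30 it was Sod3, Gpx3, Prdx4, Hmox1, Slc7a11 and Mgst1 upward (16.1%), by log2 fold changes from 0.62 for Prdx4 to 2.18 for Mgst1, and Nqo1 downward (5.67%). Against Dox, Gpx1 was past 1.5-fold downward at 20 mg/kg (7.39%) and at 30 mg/kg (14.3%). Sod1, Sod2, Prdx3, Prdx5 and Gsta4 were past it upward at 30 mg/kg (8.08%), by 0.64 to 0.73. Slc7a11 was past 1.5-fold upward against Dox at 20 mg/kg (6.93%). At 2-fold no gene passed in Rh2-20 against Control (3.34% upward and 2.80% downward), and Gpx3, Slc7a11 and Mgst1 passed upward in Rh2-30 (8.48%, with 1.63% downward). Against Dox at 2-fold, Slc7a11 passed upward at 20 mg/kg (3.08%, with 3.44% downward) and Gpx1 downward at 30 mg/kg (7.35%, with 2.76% upward). The 2 dose groups differed in which genes passed, but with 1 library each the difference between doses was not tested.

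The interaction asks whether the Dox difference changed when Rh2 was given. None of the 38 genes passed in edgeR's quasi-likelihood test, nor did any of all genes (0%), and at an unadjusted p under 0.05 there were 0 of the 38 against 2.71% of all genes. This fit leaves 2 residual degrees of freedom. DESeq2's Wald test called 0 of the 38 and 38 of all genes. Gpx1 had the smallest p on the list, with an interaction of -1.19 ± 0.52 (SE) on the log2 scale and an adjusted p of 0.988, and Mgst1 the largest value, -1.83 ± 0.93 (SE).

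Another 96 genes of the same pathways (further transferases, glutathione breakdown, NADPH supply, selenoproteins, sestrins, oxidases, lipoxygenases, and further Nrf2 targets and regulators) gave 92 with enough counts; Gpx2, Gpx6, Ggt1 and Nox1 had too few. None of the 92 passed the Dox test or the Rh2 test in edgeR. At an unadjusted p under 0.05 for Dox there were 5 higher and 7 lower, against 4.20% and 5.91% of all genes, and the median log2 difference was -0.03. With Rh2, 66 of the 92 lay above 0, with a median of 0.15, and 6 were higher and 3 lower at an unadjusted p under 0.05, against 4.09% and 4.65%.

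The smallest p for Dox in this wider set belonged to Ucp3 and Xdh. Ucp3, an uncoupling protein of muscle mitochondria, stood at 46.3, 35.4 and 44.3 CPM without Dox and at 11.5, 10.3 and 19.5 CPM in Dox, Rh2-20 + Dox and Rh2-30 + Dox, a log2 difference of -1.61 ± 0.25 (SE) with an adjusted p of 0.149 by edgeR. Xdh, the xanthine oxidoreductase that can itself make superoxide, stood at 560.3, 584 and 442 CPM without Dox and at 1119.6, 776 and 954 CPM with it. Its log2 difference was 0.85 ± 0.17 (SE), with an adjusted p of 0.216 by edgeR. The levels with and without Dox did not overlap for either gene. The same held for 14 of the 92 in all (15.2%) and for 17.0% of all genes, and these genes were named for their small p.

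Sesn3, Ephx1 and Ncf1 came next by p. Sesn3, a sestrin, lay at 15.6 to 17.0 CPM without Dox and 11.2 to 13.1 with it, and Ncf1, a phagocyte NADPH oxidase subunit, at 5.73 to 8.16 and 3.94 to 5.67 CPM. Ephx1, the microsomal epoxide hydrolase, lay at 49.1 to 52.2 CPM without Dox and 57.5 to 67.5 with it. Their log2 differences were -0.44, -0.66 and 0.33, with adjusted p from 0.296 to 0.369 by edgeR. The macrophage markers, 4 genes, summed to 242 to 347 CPM without Dox and 173 to 277 with it, and their part in the level of Ncf1 was not tested.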

How the data were processed

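Read counts, FPKM and TPM per gene were deposited by the authors in 1 table of 6 libraries. The authors prepared libraries by SureSelect XT RNA Direct capture, and by their methods and the submitters' processing notes used bcl2fastq 2.20.0, Trimmomatic, HISAT2 2.1.0 against mm10 with UCSC annotation, and StringTie 2.1.3b; strand setting and treatment of shared reads are not given in the sources used here. The deposited FPKM were used to rank genes and to imply transcript length, and the TPM were not used.

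Genes averaging 10 counts or more per library were TMM-scaled and tested with edgeR 4.0.16 (R 4.3.3) by quasi-likelihood: Dox against no Dox (3 against 3 libraries), Rh2 against none (4 against 2, with Dox as a term) and their interaction. P-values were adjusted over all genes tested and called at 0.05. These tests treat libraries of other treatments as replicates, so p-values measure the spread between pooled libraries, with 1 per condition. That spread includes any difference between Rh2 doses. Every comparison of libraries with and without Rh2 also includes any effect of the fluid Rh2 was given in and of daily injection. Single libraries were compared as log2 fold changes (prior count 0.5) with exact conditional binomial 95% intervals and called at 1.5-fold. Alternatives used DESeq2 1.42.0, limma 3.58.1 on log2(FPKM + 1) and log2(FPKM + 0.1), other filters, scaling and terms, a 2-fold threshold, and each library left out. Scripts were tested on simulated data, where changes of 1.5-fold were seldom called and most of 4-fold were, and figures drawn with matplotlib 3.10.9.

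The genes and lists were chosen with earlier results of these data known. All 6 values are printed for genes called in a test, not overlapping between Dox and no Dox, past 1.5-fold in 2 of 3 Dox pairs or in both Rh2 comparisons at a dose, or among the 3 highest in FPKM; of the pathway genes, for the 5 with the smallest p for Dox. Mgst1, Gpx1, Txnrd1, Nqo1, Hmox1 and Cat were given in all libraries after their values were seen, as were the ranges of other members. Gene positions and promoter windows come from RefSeq (GRCm38.p6, the assembly that mm10 names).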

Additional observations from a re-analysis of the deposited data

How the results depend on the processing

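The labels give no replicate numbers by which to pair libraries. With the Rh2 dose as a term, which matches each Dox library to its partner, 0 of the 38 genes and 0 of all genes were called for Dox. DESeq2's Wald test called 1 of the 38 (Gstm1) and 423 genes in all for Dox, 247 for Rh2 and 38 for the interaction, against 5, 0 and 0 by edgeR; the cause was not tested. For Dox, limma on log2(FPKM + 1) called 0 genes, and leaving out 1 library called 0 to 14 genes (3 without Rh2-30, 14 without Rh2-30 + Dox, 0 without any of the other 4) but none of the 38. Of the 38, between 8 (without Rh2-30 + Dox) and 25 (without Rh2-20) lay above 0 for Dox with 1 library left out, against 20 with all. The matching share of all genes was not counted. Without both Rh2-30 libraries, tried after the data were seen, 103 genes were called for Dox and 23 for Rh2, none of them on the list. At a threshold of 2-fold, 1 gene of the list passed in Dox against Control, 0 in the Dox pair at 20 mg/kg and 3 in that at 30 mg/kg, and for Rh2 0 (20 mg/kg) and 3 (30 mg/kg) against Control and 1 at each dose against Dox. On log2(FPKM + 1), 9 passed 1.5-fold in the Dox pair at 30 mg/kg, and 1 in Rh2-20 against Control and against Dox; on log2(FPKM + 0.1), 1 passed in each of the latter. With DESeq2 size factors 3 genes (Gstm1, Mgst3 and Nfe2l2, not Aifm2 or Acsl4) did not overlap between Dox and no Dox, against 4 with TMM. On FPKM 4 genes did not overlap either, but they were Gstm1, Mgst3, Txnrd1 and Gsr. Slc7a11, whose FPKM is far below either pseudocount, had a log2 difference with Rh2 of 0.02 on log2(FPKM + 1). Of 266 fold changes of single genes in single pairs, 105 on log2(FPKM + 1) and 108 on log2(FPKM + 0.1) moved beyond their counting interval, and with a prior count of 2 none did. No gene of the list was called by edgeR. The Dox differences of Gstm1, Mgst3, Txnrd1, Aifm2 and Acsl4 kept their sign in every setting. So did the Rh2 differences of Txn2, Gsta4, Gstm1 and Slc7a11. With 13 to 41 counts per library for Slc7a11 and 120 to 235 for Srxn1 and Gpx7, depth limits what can be said of these genes; the single library per condition limits all 38.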
